A study of Danio rerio with 10 samples.

Results

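The unfolded protein response was examined through 10 zebrafish genes, taken by symbol: the stress sensors atf6, ern1 and eif2ak3, the transcription factor xbp1, the degradation genes edem1, herpud1, sel1l and derl1, and the folding genes pdia4 and hyou1. All 10 were listed among the 17373 distinct genes of the torpor table. Of these, 9 belong to the 9411 genes that have a single human counterpart in a one-to-one relation and could be followed through every group. The remaining member, the ern1 row ENSDARG00000013997, is paired in the file with human ERN2 and other copies, and it was read in torpor against control only. Expression was measured by poly(A) RNA sequencing of dorsal fast-twitch muscle from 10 adult zebrafish of the AB strain. The paper lists a larger number of samples for each group than the labels used here. The 2 control fish lived at 28.5 °C without melatonin and without irradiation, and the 3 radiation fish shared that temperature but received 32.64 cGy by the sample labels, while the protocol text gives 32.68 cGy. The 2 torpor fish were cooled to 18.5 °C and given 24 µM melatonin, and the 3 torpor+radiation fish had the same cooling and melatonin together with the 32.64 cGy dose. Gamma rays came from caesium-137 in split exposures over a 10 day experiment. The paper describes tricaine anaesthesia before irradiation and does not mention it for unirradiated fish. No group analysed here had cold alone or melatonin alone, so these cannot be told apart. Fish codes start with F throughout the control and radiation groups and with M throughout the torpor group, and torpor+radiation has 2 M codes and 1 F code. The letters are not explained in the labels. Whatever they stand for cannot be told apart from torpor in the comparison of torpor with control. They are also unbalanced where torpor+radiation is compared with control, radiation or torpor, and in the interaction of radiation with torpor.

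The endoplasmic reticulum folds the proteins that a cell secretes or places in its membranes, and the unfolded protein response adjusts its capacity when unfolded chains accumulate. In vertebrates it starts from the membrane sensors IRE1 (ern1), PERK (eif2ak3) and ATF6. IRE1 splices xbp1 mRNA into the form that codes for an active transcription factor, ATF6 is cleaved to release its own transcription factor, and PERK phosphorylates eIF2 and so slows translation. XBP1 and ATF6 together drive genes for chaperones, for disulfide exchange and for endoplasmic reticulum-associated degradation (ERAD), the route that returns misfolded proteins to the cytosol for the proteasome. Muscle holds this membrane system largely as sarcoplasmic reticulum, the calcium store of contraction. A gene-level count such as the one used here gives 1 value for xbp1 and does not separate its spliced from its unspliced form.

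The files held, per gene, a mean normalized count over all fish (counts divided by size factors), the log2 fold change of a treated group over control with its standard error, and the Wald test of DESeq2. No value per fish was at hand; library totals are therefore unknown here, and overlap between individual fish could not be examined. Group means were recovered from these columns and are given with a standard error (SE) from the model. They are therefore the finest level of data that can be shown for each gene. The labels do not give the tank of each fish, but in the paper irradiated fish rejoined others of their group in a main tank. Effects of the tank therefore cannot be told apart from treatment here. The p-values rest on a modelled spread that takes the fish of a group as independent. In bulk tissue, fewer cells of a type and less RNA per cell cannot be told apart. Of 27 muscle markers 20 were listed, 2 of them with a mean under 10 normalized counts, whereas of 11 listed liver markers 9 lay under 10. This bears on the tissue because 1 protocol text of the labels names liver where the tissue label names muscle. The median gene stood 0.11 above control in radiation, 0.10 above in torpor and 0.15 above in torpor+radiation on the log2 scale (genes with a mean of at least 50).

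Xbp1, the transcription factor on which the IRE1 branch acts, was higher than control in every treated group, and it was highest where both treatments were combined. Its recovered mean was 277 normalized counts in control (SE 39.8, n = 2), 471 in radiation (SE 54.4, n = 3), 539 in torpor (SE 75.8, n = 2) and 844 in torpor+radiation (SE 96.3, n = 3). These levels correspond to 1.70, 1.94 and 3.05 times control. Intervals of neighbouring groups overlapped only between radiation (376 to 591) and torpor (409 to 710), and between torpor and torpor+radiation (675 to 1056), while control (209 to 367) lay below all of them.

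**Figure D1:**
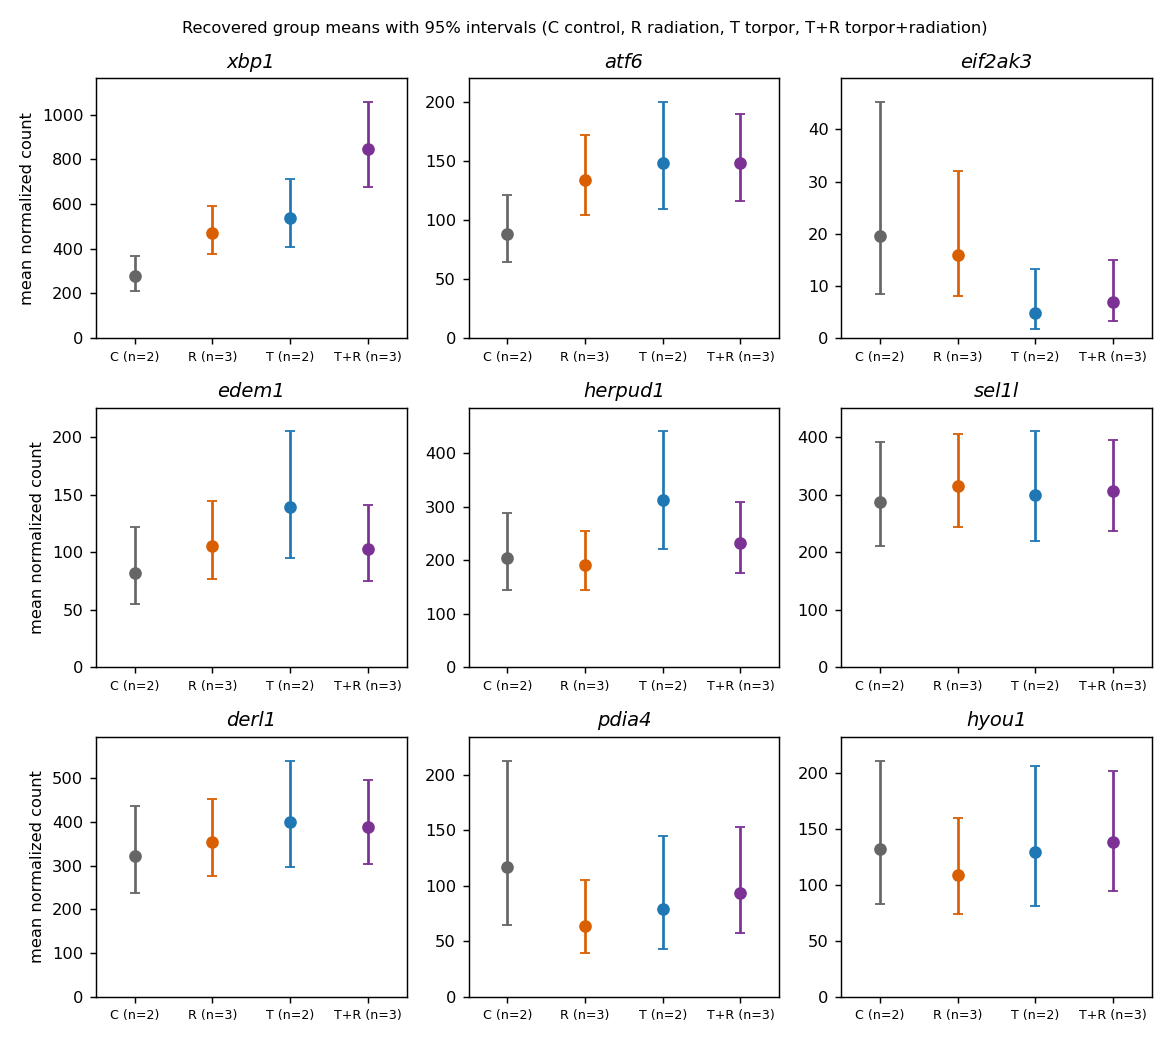
Recovered mean normalized count of each one-to-one member in control (C), radiation (R), torpor (T) and torpor+radiation (T+R), points being group means and bars 95% intervals from the model, with 2 or 3 fish a group and a separate linear axis from 0 for each gene. For xbp1 the means run from 277 in control to 844 in torpor+radiation, whereas sel1l stays between 288 and 315.

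In torpor+radiation, the log2 fold change of xbp1 over control was 1.61 (SE 0.27, 95% interval 1.09 to 2.13), with a DESeq2 adjusted p of 3e-07. It had the 19th highest Wald statistic of 6908 one-to-one genes tested. In torpor, xbp1 rose by a log2 fold change of 0.96 (SE 0.29, DESeq2 adjusted p = 0.0193) and ranked 208th of 7069 from the top. In radiation, the log2 fold change was 0.77 (SE 0.27, 95% interval 0.24 to 1.29). The adjusted p of 0.22 is past the threshold of the radiation comparison, 0.4, but would not be past that of both torpor comparisons, 0.1. Relative to the median gene, the log2 fold changes were 0.66 in radiation, 0.86 in torpor and 1.45 in torpor+radiation. The radiation call was lost under each of the 6 alternatives tried for it. With a t distribution of 6 degrees of freedom in place of the normal one, no xbp1 call remained after adjustment over all genes, the smallest adjusted p being 0.22 in torpor+radiation against radiation (0.24 in torpor+radiation against control).

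Oocyte markers also differed between control and the rest, their 12 one-to-one genes summing to 592 normalized counts in control, 20.3 in radiation, 20.0 in torpor and 8.75 in torpor+radiation. At most 3 normalized counts were found for 1 of these 12 genes in control, 10 in radiation, 11 in torpor and 11 in torpor+radiation. The control mean cancels from the difference of torpor+radiation and radiation, while the standard error rests on a spread shared over all fish. In that comparison xbp1 was higher by 0.84 on the log2 scale (SE 0.23, adjusted p = 0.00643 recovered from the DESeq2 fit), with oocyte sums of 8.75 and 20.3. Of 18 muscle markers tested in torpor, 7 were called lower and 1 higher, beside 4.82% and 6.14% of 11529 genes of every homology type. Their median log2 fold change was -0.66 over those with a mean of at least 10. The 1 one-to-one muscle marker, neb (nebulin, a protein of the thin filament), averaged 60235 normalized counts in control, 53403 in radiation, 26092 in torpor and 27625 in torpor+radiation. Neb fell in torpor by 1.21 on the log2 scale (SE 0.36, DESeq2 adjusted p = 0.0175), in torpor+radiation by 1.12 (SE 0.33, DESeq2 adjusted p = 0.0112) and in torpor+radiation against radiation by 0.95 (SE 0.29, adjusted p = 0.0169 recovered from the DESeq2 fit). The 4 one-to-one leukocyte markers summed to 185, 339, 156 and 237 in the same order of groups, none of them being called in a comparison with control. The 5 one-to-one liver markers summed to 14.7 in control, 52.9 in radiation, 51.1 in torpor and 27.6 in torpor+radiation. Of these, tfa averaged 11.6, 45.3, 48.5 and 24.9. In each comparison with control 1 liver marker was tested, and 0 were called. The part of the oocyte, muscle and liver markers in the differences of xbp1 and of the other genes was not tested.

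Among the sensors, atf6 was the 1 member that passed a test. Its mean was 88.4 normalized counts in control (SE 14.2), 134 in radiation (SE 17.0), 148 in torpor (SE 22.7) and 149 in torpor+radiation (SE 18.7). The treated groups lay close together, all above control, with intervals that overlapped it. Atf6 rose in torpor+radiation, by a log2 fold change of 0.75 (SE 0.30, DESeq2 adjusted p = 0.0792). In torpor its log2 fold change was 0.74 (SE 0.32, DESeq2 adjusted p = 0.144) and in radiation 0.60 (SE 0.30, DESeq2 adjusted p = 0.748), neither of which passed. The torpor+radiation call of atf6 was lost once fold changes were centred on the median gene (0.59, DESeq2 fold change and error with an adjusted p of 0.198) or the adjustment covered all genes with a p-value (adjusted p of 0.106).

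The sensor kinase gene eif2ak3 (PERK) was scarce in this muscle. It averaged 19.6 normalized counts in control (SE 8.37), 16.0 in radiation (SE 5.67), 4.86 in torpor (SE 2.48) and 6.96 in torpor+radiation (SE 2.72). Both torpor groups were thus the low ones, but the intervals were wide and overlapped control. The log2 fold change was -2.01 in torpor (SE 0.95, 95% interval -3.87 to -0.15, DESeq2 adjusted p = 0.197) and -1.49 in torpor+radiation (SE 0.84, DESeq2 adjusted p = 0.267). Neither passed the test. The ern1 row, for the IRE1 type of sensor, had a log2 fold change of -0.29 in torpor (SE 0.56, DESeq2 adjusted p = 0.838). The row has other copies, no sequence was at hand to compare them, and its value is uncertain in that respect.

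None of the 4 degradation members passed the test in any comparison, beside 0.215% to 15.9% of all genes called, depending on the comparison. Edem1, a mannosidase-like protein that marks misfolded glycoproteins for disposal, averaged 81.8 normalized counts in control (SE 16.5), 105 in radiation (SE 17.1), 140 in torpor (SE 27.3) and 103 in torpor+radiation (SE 16.7). Herpud1, a membrane organiser of the ERAD complex, had 204 in control (SE 36.2), 192 in radiation (SE 27.9), 313 in torpor (SE 54.7) and 233 in torpor+radiation (SE 33.6). For both genes torpor was the highest group and its interval overlapped that of control. The log2 fold change in torpor was 0.77 for edem1 (SE 0.40, DESeq2 adjusted p = 0.263), and for herpud1 it was 0.62 (SE 0.36, DESeq2 adjusted p = 0.331). In torpor+radiation, where xbp1 was highest, edem1 stood at 0.33 (SE 0.37) and herpud1 at 0.19 (SE 0.33).

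Sel1l is the adaptor of the ERAD ubiquitin ligase, and derl1 (Derlin-1) belongs to the channel proteins through which substrates leave the endoplasmic reticulum. Sel1l had the flattest profile of the members, with 288 normalized counts in control, 315 in radiation, 301 in torpor and 307 in torpor+radiation (SE 39.8 to 47.7). Its log2 fold change in torpor+radiation was 0.09 (95% interval -0.49 to 0.67). Derl1 ran at 322, 353, 399 and 387 in the same order (SE 44.4 to 61.3), and its log2 fold change in torpor+radiation was 0.27 (95% interval -0.30 to 0.83). The upper bounds of sel1l and derl1 both lay under the lower bound of xbp1 in that comparison (1.09), as did that of edem1 (1.06) and of herpud1 (0.84). Over all genes with a mean of at least 10, the median log2 fold change there was 0.09 and the median SE 0.43. A gene at both medians would also have its upper bound under 1.09, so such a bound is not particular to these members. The share of all genes with such a bound was not counted.

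Of the folding members, pdia4, a protein disulfide isomerase, was highest in control. It averaged 117 normalized counts in control (SE 35.7), 64.1 in radiation (SE 16.2), 79.1 in torpor (SE 24.3) and 93.5 in torpor+radiation (SE 23.4). Intervals of all groups overlapped, and the log2 fold change furthest from 0, -0.87 in radiation (SE 0.57), had a DESeq2 adjusted p of 0.9995. Hyou1, a large chaperone of the HSP70 family that assists BiP, ran at 132, 109, 129 and 138 in control, radiation, torpor and torpor+radiation (SE 21.3 to 31.4). Its log2 fold change in torpor+radiation was 0.06 (95% interval -0.80 to 0.93).

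Across the 6 degradation and folding members, 0 passed the test in any of the 6 comparisons made, and 0 had an unadjusted p below 0.05. Of all genes tested, 1.96% were called in radiation, 10.5% in torpor and 15.5% in torpor+radiation. The shares were 0.215% in torpor+radiation against torpor, 15.9% against radiation and 0.461% in the interaction. An unadjusted Wald p below 0.05 was found for 4.29% to 24.9% of all genes. A count of 0 among 6 genes is near these shares. The log2 fold changes of these 6 members in torpor+radiation ran from -0.33 to 0.33 with a median of 0.14. Their 95% intervals together spanned -1.44 to 1.06. Any rise above 1.06 lay outside each of these intervals, that of xbp1 (1.61) included, whereas smaller rises lay inside that of edem1. The share of all genes whose interval lay under 1.61 was not counted. The difference between xbp1 and these genes was not itself tested.

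**Figure D2:**
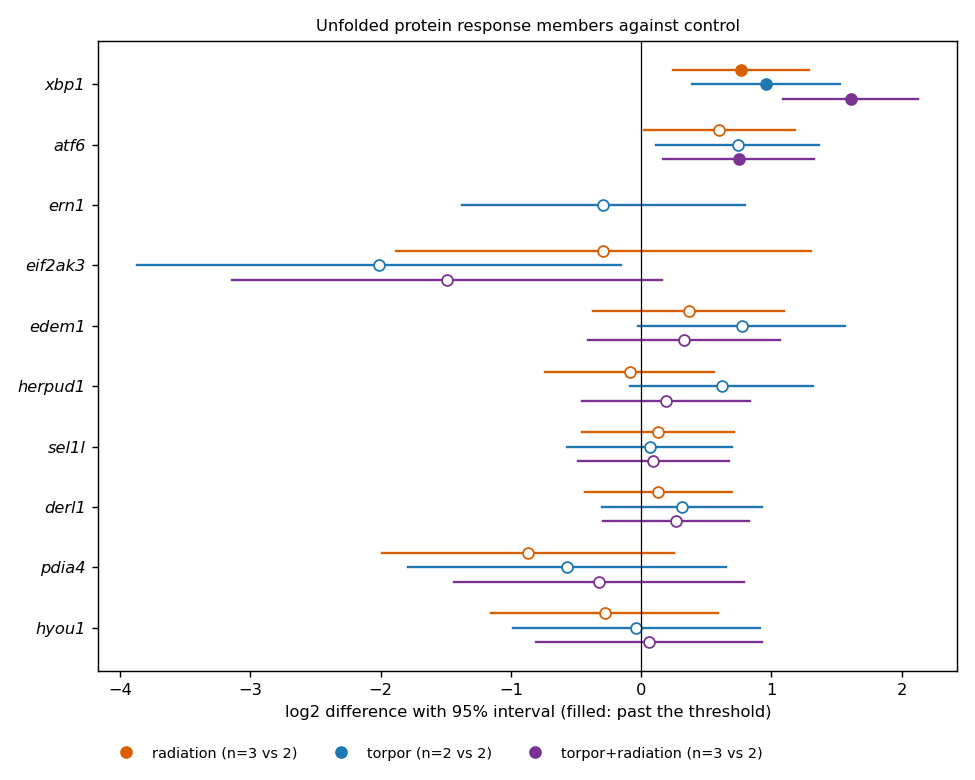
Log2 fold change over control (horizontal axis) of each member in radiation, torpor and torpor+radiation, with 95% intervals from the deposited standard errors and filled points for calls past the threshold. Only xbp1 is filled in all 3 comparisons, from 0.77 in radiation to 1.61 in torpor+radiation, and atf6 is filled in torpor+radiation; ern1 has a value in torpor alone.

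Of the 9 one-to-one members, 1 was called higher in radiation, where 1.96% of 7616 tested genes were called in either direction. In torpor 1 was called higher beside 10.5% of 7069 genes, and in torpor+radiation 2 beside 15.5% of 6908 genes. Counted in the upward direction alone, the shares of all genes were 0.657%, 6.63% and 9.09%. No member was called lower, beside 1.3%, 3.83% and 6.43% of all genes. An unadjusted p below 0.05 was found for 2, 3 and 2 of the 9 members in radiation, torpor and torpor+radiation, and for 5%, 20% and 23.7% of the genes tested. Over the 9 members, log2 fold changes had a median of 0.13 in radiation, 0.31 in torpor and 0.19 in torpor+radiation. These 3 comparisons share the control fish, so their values for a gene are not independent of each other.

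Adding radiation to torpor, and adding torpor to radiation, are questions that need contrasts in which the control mean cancels. Against torpor alone, xbp1 in torpor+radiation was 0.65 higher on the log2 scale (SE 0.26, 95% interval 0.14 to 1.16), but with an adjusted p of 0.867 recovered from the DESeq2 fit it did not pass. There 0 of 9 members and 0.215% of 6504 genes were called, 1 member and 279 genes (4.29%) having an unadjusted p below 0.05. Against radiation alone, xbp1 was the 1 member called, by 0.84 as above, beside 15.9% of 6504 genes (8.98% higher and 6.87% lower). There 1 member and 24.9% of all genes had an unadjusted p below 0.05. Eif2ak3 was the member furthest below 0 there, at -1.20 (SE 0.78, adjusted p = 0.350 recovered from the DESeq2 fit).

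The radiation by torpor interaction asks whether the log2 response to radiation differed between 18.5 °C with melatonin and 28.5 °C. For xbp1 it was -0.12 (SE 0.37, 95% interval -0.85 to 0.61, adjusted p = 0.999 recovered from the DESeq2 fit). On this scale the response to radiation was 0.65 in torpor and 0.77 at 28.5 °C, and the interval allows the response in torpor to be lower by as much as 0.85 or higher by as much as 0.61. The largest value among members was that of pdia4, 1.11 (SE 0.81), and the lowest that of edem1, -0.81 (SE 0.52). None of the 9 passed the Wald test, none had an unadjusted p below 0.05, and 0.461% of all genes were called (4.87% at an unadjusted p below 0.05).

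**Figure D3:**
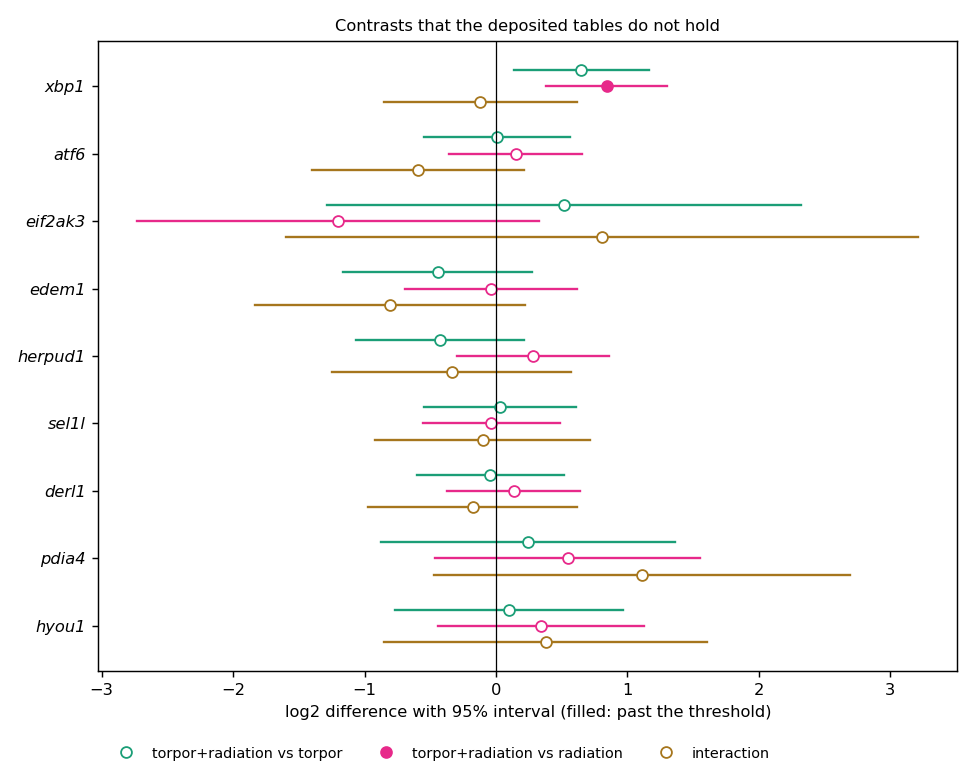
Log2 differences with 95% intervals (horizontal axis) of the 9 one-to-one members in torpor+radiation against torpor, torpor+radiation against radiation and the interaction, recovered from the deposited columns, with filled points for calls past the threshold. The 1 filled point is xbp1 in torpor+radiation against radiation, at 0.84, and the interaction intervals are the widest.

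The members were next set beside 6 lists of related genes, namely sensors and factors, endoplasmic reticulum chaperones, disulfide oxidoreductases, ERAD, the translocon with N-glycosylation, and the eIF2 phosphorylation arm. In torpor+radiation 12 of 83 tested genes of these lists were called higher and 5 lower, and without the members 10 and 5 of 74, beside 9.09% higher and 6.43% lower among all genes tested. In torpor 6 of 100 were called higher and 4 lower, where 11% of 11529 genes of every homology type were called (6.14% higher and 4.82% lower), and in radiation 2 of 84 were called higher and 0 lower, beside 0.657% and 1.3% of all genes. Medians over all 6 lists were 0.18 in radiation, 0.10 in torpor and 0.32 in torpor+radiation, beside 0.05, -0.00 and 0.09 over all genes with a mean of at least 10. In torpor+radiation against radiation 9 of 82 were called higher and 8 lower (8.98% and 6.87% of all genes), and against torpor 0 of 82 were called (0.215% of all genes). With the t distribution, no call of any gene remained in the 3 comparisons with control.

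**Figure D4:**
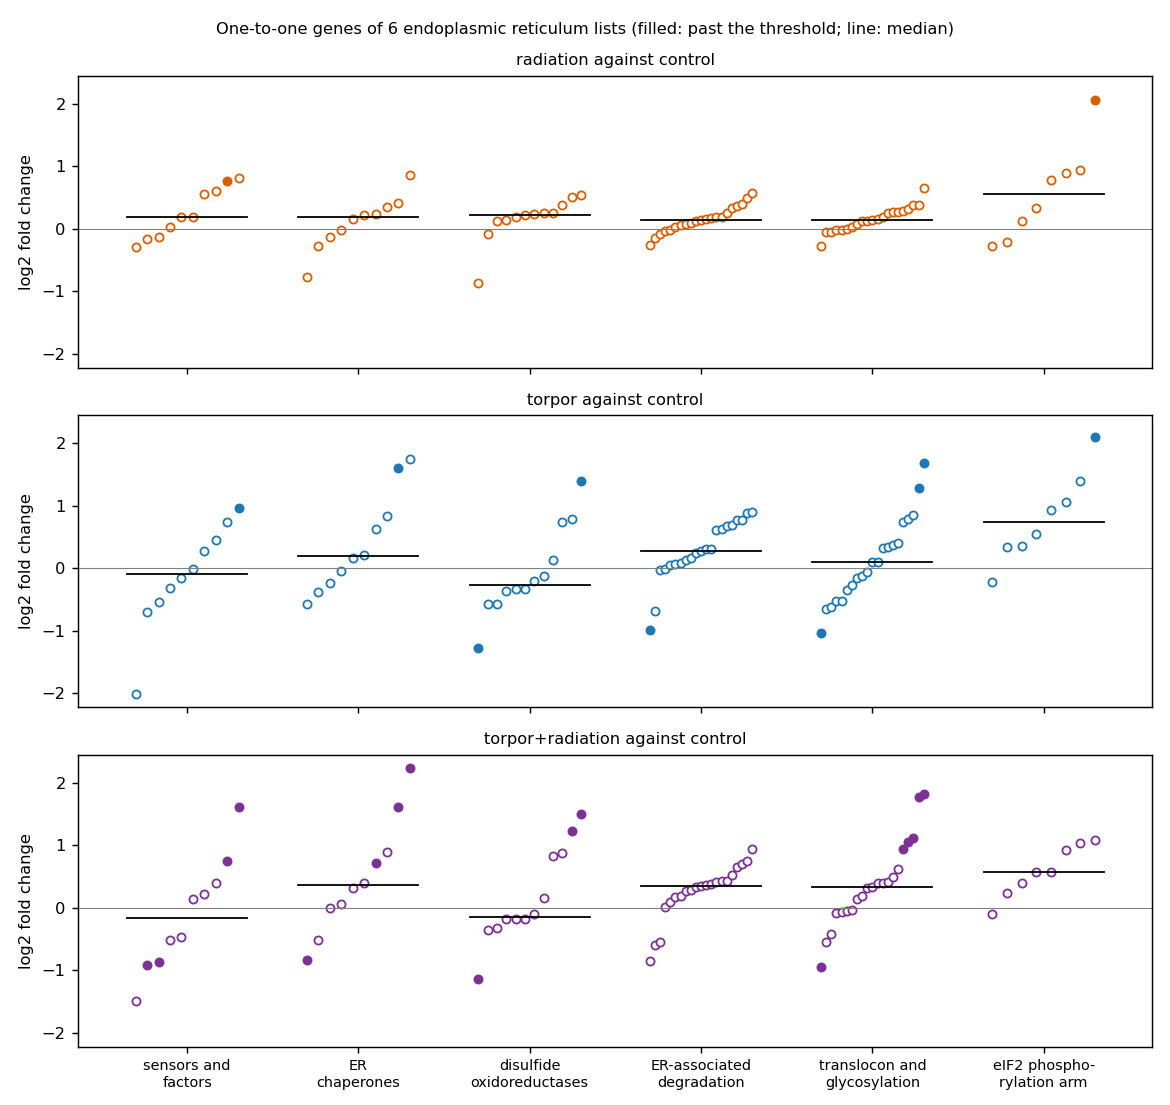
Log2 fold change over control (vertical axis) of the one-to-one genes with a mean of at least 10 normalized counts in each of the 6 lists, 1 point a gene sorted within its list, filled where called, with the list's median as a line. In torpor+radiation 5 translocon and glycosylation genes are filled above 0 and 1 below, whereas no ERAD gene is filled.

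Hspa5 and hsp90b1, the chaperone genes best known as readouts of this response, did not pass in any comparison with control. Hspa5, which codes for BiP, the chief chaperone of the compartment, averaged 438 normalized counts in control, 257 in radiation, 373 in torpor and 437 in torpor+radiation. Radiation was its lowest group, with a log2 fold change of -0.77 (SE 0.40, DESeq2 adjusted p = 0.815). In torpor+radiation the log2 fold change of hspa5 was -0.003 (SE 0.40). Hsp90b1 (GRP94), a chaperone of the HSP90 family, had log2 fold changes of -0.57 in torpor (SE 0.35) and -0.52 in torpor+radiation (SE 0.32). The lectin chaperone canx rose in torpor+radiation, by 0.71 (SE 0.27, DESeq2 adjusted p = 0.0642), while its soluble relative calr had 0.32 (SE 0.49) and did not pass.

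Of the BiP co-chaperones, dnajb9a and dnajb9b were read in torpor only, at 0.21 (SE 0.98) and 0.75 (SE 0.62), and dnajc1 fell in torpor+radiation by 0.84 on the log2 scale (SE 0.30, DESeq2 adjusted p = 0.0450). Dnajc10 stood at 0.90 in torpor+radiation (SE 0.39, DESeq2 adjusted p = 0.125). In torpor, dnajb11 stood at 1.21 (SE 0.52), dnajc3b at 0.65 (SE 0.35) and dnajc3a at -0.10 (SE 0.75). None of these passed. Sdf2, a partner of endoplasmic reticulum chaperones, rose in torpor by 1.60 (SE 0.44, DESeq2 adjusted p = 0.00817) and in torpor+radiation by 1.61 (SE 0.41, DESeq2 adjusted p = 0.00232). Its means without and with radiation were 49.8 and 58.2 at 28.5 °C, and 151 and 152 at 18.5 °C with melatonin. Together 3 of 11 tested chaperone genes were called higher and 1 lower in torpor+radiation, beside 9.09% and 6.43% of all genes.

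Of 12 disulfide oxidoreductases tested in torpor+radiation, 2 were called higher and 1 lower, beside 15.5% of all genes called in either direction, and their median log2 fold change was -0.14 beside 0.09 over all genes. Txndc12 and txndc5, both thioredoxin-domain proteins of the endoplasmic reticulum, rose in torpor+radiation by 1.49 (SE 0.36, DESeq2 adjusted p = 0.00128) and 1.23 (SE 0.30, DESeq2 adjusted p = 0.00129). Erp44, which retains and retrieves client proteins through disulfide bonds, fell in torpor+radiation by 1.13 (SE 0.25, DESeq2 adjusted p = 2.63e-04) and in torpor by 1.27 (SE 0.27, DESeq2 adjusted p = 2.16e-04). Its group means without and with radiation were 574 and 654 normalized counts at 28.5 °C, and 237 and 262 at 18.5 °C with melatonin.

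The ERAD list, to which edem1, herpud1, sel1l and derl1 belong, held 21 tested one-to-one genes. In torpor+radiation 0 were called, beside 15.5% of all genes. Their median was 0.35, beside 0.09 over all genes. Above 0 lay 18 of them and below 0 lay 3, and the share of all genes above 0 was not counted. In torpor, 0 of 23 were called higher and rnf139, a membrane ubiquitin ligase, was called lower at -0.99 (SE 0.37, DESeq2 adjusted p = 0.0807). Among 11529 genes of every homology type, 6.14% were called higher and 4.82% lower, so these counts are near the shares of all genes. Syvn1 (HRD1), the ligase that works with sel1l, had 0.05 in torpor (SE 0.34) and 0.36 in torpor+radiation (SE 0.31), and neither passed.

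On the PERK side, ddit3 (CHOP), the factor linked to cell death under prolonged stress, averaged 184 normalized counts in control, 271 in radiation, 148 in torpor and 98.1 in torpor+radiation. Ddit3 fell in torpor+radiation against control by 0.91 (SE 0.34, DESeq2 adjusted p = 0.0578) and against radiation by 1.47 (SE 0.30, adjusted p = 7.16e-05 recovered from the DESeq2 fit), which is the opposite direction to xbp1 in both comparisons. Its interaction of -1.15 (SE 0.47) did not pass, with an adjusted p of 0.721 recovered from the DESeq2 fit. Ddit3 was counted with the sensors and factors. Medians of the eIF2 phosphorylation arm list were 0.56 in radiation, 0.35 in torpor and 0.57 in torpor+radiation. Over all genes they were 0.05, -0.00 and 0.09. Of its tested genes 1 of 8, 1 of 12 and 0 of 8 were called higher, and 0 lower. The shares of all genes called in either direction were 1.96%, 11% and 15.5%. The translationally regulated factors atf4a and atf4b were read in torpor only, at -0.19 (SE 0.38) and 0.99 (SE 0.51, DESeq2 adjusted p = 0.251). Asns, asparagine synthetase and a known ATF4 target in mammals, rose in torpor by 2.09 (SE 0.57, DESeq2 adjusted p = 0.00690), with 34.4 normalized counts in control and 147 in torpor. In torpor+radiation asns stood at 72.6 normalized counts and did not pass, with a log2 fold change of 1.08 (SE 0.53, DESeq2 adjusted p = 0.184). Atf3, a stress-induced factor, was called in radiation at 2.05 (SE 0.63, DESeq2 adjusted p = 0.0971), with 10.5 normalized counts in control and 43.6 in radiation. Its log2 fold changes of 1.39 in torpor (SE 0.68, DESeq2 adjusted p = 0.227) and 0.93 in torpor+radiation (SE 0.65, DESeq2 adjusted p = 0.397) did not pass. Another factor of the first list, creb3l2, a membrane-bound relative of atf6, fell in torpor+radiation by 0.86 (SE 0.28, DESeq2 adjusted p = 0.0251). Creb3l3l, of the same family, was lower in torpor+radiation than in radiation, with a log2 difference of -1.26 (SE 0.37, adjusted p = 0.00920 recovered from the DESeq2 fit).

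The genes whose 4 group means, on the log2 scale and centred per gene, lay nearest to those of xbp1 were relt, mrps23 and usp22, among 6503 genes compared. Their Euclidean distances were 0.17, 0.19 and 0.19, over 4 group means that do not carry the error of single fish. Relt had 15.2 normalized counts in control, 28.5 in radiation, 34.9 in torpor and 48.8 in torpor+radiation. The order of groups was thus the same as for xbp1, which the measure of likeness itself selects.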

How the data were processed

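Muscle RNA of 10 fish was sequenced as paired-end reads from stranded poly(A) libraries. The authors used FastQC, cutadapt, STAR with GRCz11, HTSeq and DESeq2, whose versions are not given in the sources used here. Each of the 3 deposited tables compares a treated group with control. The authors' signal column is baseMean, the mean normalized count over all fish. The deposited log2 columns are the unshrunken fold change and its standard error, the deposited score is the Wald statistic, and the deposited p-value stands beside the authors' Benjamini-Hochberg adjustment. These columns are the authors' own comparisons, and every result here rests on them because no column holds values per fish. Library totals are therefore unknown, and precision is given by standard errors (median 0.43 in radiation, 0.46 in torpor and 0.43 in torpor+radiation for genes with baseMean of at least 10).

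The mean of each group was solved from baseMean together with the 3 fold changes and the number of fish a group, and group variances from the 3 standard errors under a negative binomial model. Recalculated standard errors of members were 0.986 to 1.01 times the deposited ones. Wald tests of torpor+radiation against torpor, of torpor+radiation against radiation and of the interaction followed, with Benjamini-Hochberg adjustment over the 6504 one-to-one genes whose baseMean reached 10 and calls at 0.1. Deposited adjusted p-values were called at 0.4 in radiation and at 0.1 wherever fish had torpor, after the cut-offs in the results text of the study. Intervals are 95%. List medians cover genes with baseMean of at least 10, and counts cover genes with an adjusted p. Python 3.11.15, numpy 2.4.6, pandas 2.3.3 and scipy 1.17.1 were used. The recovery was run on simulated data whose standard errors came from the same formula that it inverts. That check covers the algebra and not the DESeq2 fit. Alternatives were another reference distribution, centring, filters, thresholds, variances and group weights.

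Members and lists were chosen with earlier results of these data known. Named genes are the members, called list genes (at most 5 in each direction and comparison by Wald statistic), 10 genes fixed by name and the 3 genes nearest to xbp1. Marker lists covered muscle, liver, oocytes, leukocytes and erythrocytes. The erythrocyte list kept 1 one-to-one gene, alas2, at 40.9 normalized counts in control, 51.7 in radiation, 37.8 in torpor and 35.1 in torpor+radiation. Promoter motifs were planned and not analysed here, as no sequence of the build was at hand.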

Additional observations from a re-analysis of the deposited data

How the results depend on the processing

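No paired analysis was possible because the columns hold no value per fish, and for the same reason leaving out each replicate in turn was not run. Under a t distribution with 6 degrees of freedom, calls over all genes went from 149 to 0 in radiation, 740 to 0 in torpor, 1072 to 0 in torpor+radiation, 14 to 0 in torpor+radiation against torpor, 1031 to 3 in torpor+radiation against radiation and 30 to 0 in the interaction, and members called went to 0 in each comparison that had any (from 1, 1, 2 and 1). By DESeq2's normal distribution, genes with an unadjusted p below 0.05 numbered 381, 1413 and 1634 in the 3 comparisons with control. Radiation calls were 16 when adjusted over genes with baseMean of at least 50, 83 over all genes with a p-value, 60 over baseMean of at least 10 and 33 at a threshold of 0.05. In each of these 4 settings, and after centring on the median gene, 0 members were called in radiation, the adjusted Wald p of xbp1 being 0.537, 0.416, 0.405, 0.222 and 0.590. In torpor+radiation, 1 member in place of 2 was called after centring, over all genes with a p-value and at 0.05 (712 genes in all). The threshold of 0.05 also left 9 calls in torpor+radiation against torpor and 19 in the interaction, and baseMean of at least 50 left 11 in the interaction. Adding genes of every homology type, an alternative chosen after seeing the data, gave 1264 calls in torpor. No called member changed sign; the uncalled sel1l (torpor and torpor+radiation), hyou1 (torpor+radiation) and atf6 (torpor+radiation against torpor) crossed 0 on centring. Over the alternatives, the adjusted Wald p of xbp1 ran from 0.222 to 0.999 in radiation, 0.0148 to 0.371 in torpor, 2.31e-07 to 0.243 in torpor+radiation and 0.00451 to 0.22 in torpor+radiation against radiation. Taking group variances from the recovered dispersion alone changed no member's call, and equal weights of the groups in baseMean moved the xbp1 control mean from 276.9 to 289.9. With 2 or 3 fish a group the intervals of members were wide, and the smallest detectable change was not calculated.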

Other observations

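Genes of the translocon and of N-glycosylation, which bring new chains into the endoplasmic reticulum and attach sugars to them, were among those called in torpor+radiation. Of 21 tested, 5 were called higher and 1 lower, beside 15.5% of all tested genes called in either direction. Ostc, an accessory subunit of the oligosaccharyltransferase, rose in torpor by 1.68 (SE 0.38, DESeq2 adjusted p = 7.69e-04) and in torpor+radiation by 1.82 (SE 0.35, DESeq2 adjusted p = 2.37e-05), from 99.9 normalized counts in control to 319 and 353. Dad1, another subunit, rose in torpor by 1.28 (SE 0.45, DESeq2 adjusted p = 0.0540) and in torpor+radiation by 1.77 (SE 0.41, DESeq2 adjusted p = 7.83e-04).

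The alternative catalytic subunits of that enzyme moved in opposite directions. Stt3a, which in mammals glycosylates chains as they enter through the translocon, averaged 599 normalized counts in control, 651 in radiation, 291 in torpor and 313 in torpor+radiation, and fell in torpor+radiation by 0.94 (SE 0.30, DESeq2 adjusted p = 0.0230). Stt3b, which in mammals reaches sites that stt3a skipped, averaged 205, 197, 353 and 444 in the same order and rose in torpor+radiation by 1.11 (SE 0.34, DESeq2 adjusted p = 0.0144). Against radiation alone, stt3a had a log2 difference of -1.06 (SE 0.27, adjusted p = 0.00213 recovered from the DESeq2 fit) and stt3b one of 1.17 (SE 0.30, adjusted p = 0.00245 recovered from the DESeq2 fit). In torpor, sec61a1, the core of the translocation channel, was called lower at -0.71 (SE 0.28, DESeq2 adjusted p = 0.0989). The ratio of stt3a to stt3b was not itself tested, and under the t distribution neither gene was called against control. The other translocon genes called higher in torpor+radiation were ssr3 at 1.06 (SE 0.31) and spcs3 at 0.95 (SE 0.32). The BiP partner sdf2l1 of the chaperone list was called there at 2.23 (SE 0.81, DESeq2 adjusted p = 0.0516). Its means were low, at 5.70 normalized counts in control and 26.8 in torpor+radiation. Ssr3, sdf2l1 and the co-chaperones dnajc10, dnajb11, dnajc3a and dnajc3b were named after their values were seen.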
